A study of Mus musculus with 9 samples.

Results

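Oxidative phosphorylation is carried out by 5 protein complexes of the inner mitochondrial membrane, and the genes for their nuclear-encoded subunits are described here in 3 kinds of cultured mouse pluripotent stem cells. Genes were taken by name from the probe annotation of the array: symbols that start with Ndufa, Ndufb, Ndufc, Ndufs, Ndufv, Uqcr or Atp5, or with Cox4 to Cox8, and Sdha to Sdhd. This gave 114 probe sets for 89 genes, of 19938 genes tested. By role, 34 of the 89 encode subunits of complex I, 4 of complex II, 8 of complex III, 18 of complex IV and 17 of complex V, and 8 are no stable subunits. These 8 are 7 assembly factors of complex I (Ndufaf1 to Ndufaf7) and Cox7a2l, which links complexes III and IV into supercomplexes. Ndufa4 and its relative Ndufa4l2 were counted with complex IV, where the Ndufa4 protein is now placed. Cox7c and Ndufb4 lay only on probe sets shared with another gene and were not tested.

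In the respiratory chain, complex I takes electrons from NADH and complex II takes them from succinate, and both pass them to ubiquinone. Complex III carries them on to cytochrome c and complex IV, cytochrome c oxidase, hands them to oxygen. The proton gradient built on the way drives complex V, the ATP synthase. Naive embryonic stem cells are known to use both respiration and glycolysis, while primed epiblast stem cells are known for their reliance on glycolysis and for low expression of cytochrome c oxidase genes.

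Total RNA was measured on 9 single-colour microarrays, 3 for each of 3 cultures. The 2i ESCs were embryonic stem cells of strain 129, grown with a pair of kinase inhibitors, CHIR99021 against GSK3 and PD0325901 against MEK. The CHIR/XAV EpiSCs were epiblast stem cells of strain CD1 grown with CHIR99021 and XAV939, a tankyrase inhibitor, and the FGF2/activin EpiSCs were epiblast stem cells of strain CD1 grown with both of these growth factors. The labels give the doses for all samples in a single list: CHIR99021 at 3 µM, PD0325901 at 1 µM, XAV939 at 2 µM, FGF2 at 10 ng/ml and activin at 10 ng/ml. Which agent went with 2i was taken from the common meaning of that name. All 3 media held 10% fetal bovine serum. Strain goes with cell type, so in each comparison with ESCs the effects of strain and of cell state cannot be told apart. Whether the 3 arrays of each group hold RNA of independent cultures is not in the labels, and the p-values reflect array-to-array spread that may be technical only. In cultures measured in bulk, fewer cells of a type and less RNA per cell cannot be told apart.

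Values are log2 expression, with array medians of 5.57 to 5.65, and arrays of one group correlated at 0.9959 to 0.998 across all genes. The label calls all 9 samples mouse embryonic stem cells. Of 6 markers of naive ESCs, 6 were lower in each EpiSC group than in ESCs, and of 6 markers of the primed state, 6 were higher. The EpiSC groups differed in sex-linked RNA. Xist had a mean of 9.12 in CHIR/XAV EpiSCs, 4.38 in FGF2/activin EpiSCs and 4.59 in ESCs, and the Y-linked Eif2s3y had means of 4.41, 9.61 and 9.15 in the same order. In comparisons between the EpiSC cultures, an effect of the medium and one of the cell line or its sex chromosomes cannot be told apart. Genes of chromosome 15 above the dimmest 40% of all genes had a median change of 0.37 in CHIR/XAV EpiSCs against ESCs, compared with 0.10 in FGF2/activin EpiSCs.

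Across the 89 genes, changes went both ways and most were small. In CHIR/XAV EpiSCs against ESCs, 22 genes rose (24.7%) and 21 fell (23.6%) at a limma adjusted p under 0.05. Of all genes tested, 24.7% rose and 22.1% fell in that comparison. In FGF2/activin EpiSCs against ESCs, 20 rose (22.5%) and 24 fell (27.0%), where 27.8% of all genes rose and 33.5% fell. Between the EpiSC cultures, 20 were higher in CHIR/XAV (22.5%) and 11 were lower (12.4%), beside 20.5% and 21.1% of all genes. The 11 became 7 when FGF2/activin replicate 1 was left out. Of the 89 genes, 85 lie above the dimmest 40% of all genes, and the shares of all genes above that limit are another background. In CHIR/XAV EpiSCs 21 of the 85 rose (24.7%) and 20 fell (23.5%), beside 36.2% and 26.9%. The 85 had 20 rises (23.5%) and 21 falls (24.7%) in FGF2/activin EpiSCs, beside 42.4% and 28.6%, and between the EpiSC cultures 18 were higher (21.2%) and 11 lower (12.9%), beside 22.3% and 32.8%. On the deposited scale the shares of the complexes' genes thus lie near those of all genes or below them, and each lies below that of the brighter genes. The 2 comparisons with ESCs share the ESC arrays, so their values stand side by side and are not independent.

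Scaling moved this balance. After centring each array on its median, 15 genes rose (16.9%) and 28 fell (31.5%) in CHIR/XAV EpiSCs against ESCs, beside 20% and 37.2% of all genes. The FGF2/activin EpiSCs had 18 rises (20.2%) and 33 falls (37.1%), beside 24.2% and 45.0%, and between the EpiSC cultures 17 were higher (19.1%) and 12 lower (13.5%), beside 17.4% and 22.6%. After quantile normalization 20 rose (22.5%) and 22 fell (24.7%) in CHIR/XAV EpiSCs, beside 23.2% and 24.8% of all genes. Then 12 rose (13.5%) and 33 fell (37.1%) in FGF2/activin EpiSCs, beside 24.4% and 28.6%. In CHIR/XAV against FGF2/activin EpiSCs 26 were higher (29.2%) and 7 lower (7.87%), beside 19.4% and 18.9%. Under that setting the falls in FGF2/activin EpiSCs and the genes higher in CHIR/XAV EpiSCs took a larger share of the 89 than of all genes. Centring moved the median of all genes by -0.10 in the first comparison. A split between rises and falls in these data therefore depends on how the arrays are scaled, while no called change among the 89 genes turned into a call of the opposite direction under either setting.

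Changes of size were fewer among these genes than among all genes. At a limma adjusted p under 0.05 and at least 1.5-fold in either direction, a limit chosen after the values were seen, 8 of the 89 passed in CHIR/XAV EpiSCs against ESCs (8.99%), beside 17.7% of all genes. In FGF2/activin EpiSCs 4 passed (4.49%), beside 20.7%, and between the EpiSC cultures 4 passed, beside 11.6%. At least 2-fold, 1 gene passed in each comparison with ESCs and 0 between the EpiSC cultures, beside 8.32%, 10.1% and 4.11% of all genes. Those 2 genes both encode parts of complex V, Atp5g2 in CHIR/XAV and Atp5e in FGF2/activin EpiSCs. The median change of the 89 genes was 0.03, -0.04 and 0.03 in the 3 comparisons, and that of all genes was -0.03, -0.08 and 0.05. Over the 89 genes the median SD within groups was 0.073 and the median SE of a change was 0.0751. A change as small as these medians is therefore not resolved for a single gene.

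**Figure D1:**
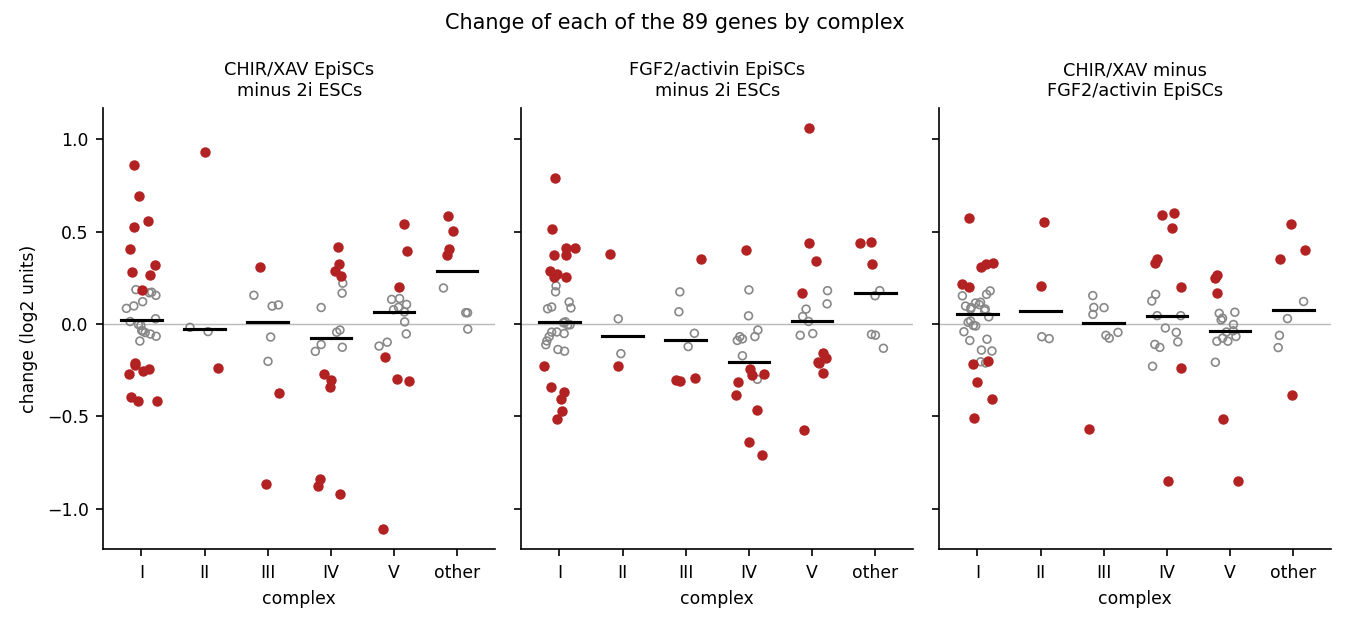
Each point is 1 of the 89 genes, placed by complex on the x axis (8 genes that are no stable subunits under "other") with its change in log2 units on the y axis, in 3 panels for the 3 comparisons. Red points passed a limma adjusted p under 0.05, open grey points did not, and bars are medians; the points lie on both sides of 0 in every panel, and complex IV has the lowest median, -0.21, in FGF2/activin EpiSCs against ESCs.

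Complex I is the largest of the 5 and holds a core that carries the electron path and many accessory subunits. In CHIR/XAV EpiSCs against ESCs, 9 of its 34 measured genes rose (26.5%) and 8 fell (23.5%), beside 24.7% and 22.1% of all genes. In FGF2/activin EpiSCs 10 rose (29.4%) and 6 fell (17.6%), beside 27.8% and 33.5%. Between the EpiSC cultures 6 were higher (17.6%) and 5 lower (14.7%) in CHIR/XAV, beside 20.5% and 21.1%. Medians of the complex I genes were 0.02, 0.01 and 0.06. Of 6 core genes 2 rose and 1 fell in CHIR/XAV, and 1 rose and 1 fell in FGF2/activin EpiSCs. Against ESCs, rises and falls were therefore mixed within this complex, among core and accessory genes alike. Between the EpiSC cultures 3 of the 6 core genes were higher and 0 lower in CHIR/XAV. Of 28 accessory genes 3 were higher and 5 lower.

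Ndufs5, an accessory subunit on the intermembrane side, had the largest rise of complex I. Its values were 6.87, 6.73 and 6.71 on the 2i ESC arrays, 7.46, 7.54 and 7.90 on the CHIR/XAV EpiSC arrays and 7.53, 7.62 and 7.53 on the FGF2/activin EpiSC arrays. All 6 EpiSC arrays lay above all 3 ESC arrays. The change was 0.86 ± 0.10 (SE; limma adjusted p = 4.76e-06) in CHIR/XAV and 0.79 ± 0.10 (SE; limma adjusted p = 9.82e-06) in FGF2/activin EpiSCs. A second probe set, shared between Ndufs5 and its pseudogene and not tested, changed by 0.13 and 0.29, so the size of this rise is uncertain.

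Ndufa2, an accessory subunit of the NADH-binding module, had values of 8.82, 8.67 and 8.62 on the 2i ESC arrays, 9.44, 9.42 and 9.32 on the CHIR/XAV EpiSC arrays and 9.28, 9.25 and 9.12 on the FGF2/activin EpiSC arrays. Again no EpiSC array overlapped with the ESC arrays, and the rises were 0.69 ± 0.08 (SE; limma adjusted p = 2.72e-06) and 0.51 ± 0.08 (SE; limma adjusted p = 4.55e-05). Ndufs3, a core subunit near the site of ubiquinone reduction, is named here after its values were seen. It measured 9.85, 9.96 and 10.05 on the 2i ESC arrays, 10.51, 10.48 and 10.54 on the CHIR/XAV EpiSC arrays and 10.25, 10.23 and 10.14 on the FGF2/activin EpiSC arrays. The 3 groups did not overlap, with CHIR/XAV EpiSCs highest, and the changes against ESCs were 0.56 ± 0.07 (SE; limma adjusted p = 1.11e-05) and 0.25 ± 0.07 (SE; limma adjusted p = 0.00671).

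Among the falls, Ndufv1 encodes the core subunit that binds NADH. Its values were 10.06, 10.18 and 10.09 on the 2i ESC arrays, 9.82, 9.81 and 9.88 on the CHIR/XAV EpiSC arrays and 9.65, 9.65 and 9.62 on the FGF2/activin EpiSC arrays. ESC arrays were highest and FGF2/activin arrays lowest, without overlap, and the changes were -0.27 ± 0.06 (SE; limma adjusted p = 0.0023) and -0.47 ± 0.06 (SE; limma adjusted p = 1.75e-05). Its difference between the EpiSC cultures, 0.20 ± 0.06 (SE; limma adjusted p = 0.0206), was lost without CHIR/XAV replicate 3 (0.18), FGF2/activin replicate 1 (0.20) or FGF2/activin replicate 3 (0.19). Ndufs6, a zinc-binding accessory subunit, fell by 0.40 and 0.51 (SE 0.08 for both; limma adjusted p = 0.000896 and 8.27e-05). Ndufb5, of the membrane arm, fell by 0.42 and 0.40 (SE 0.06 for both; limma adjusted p = 7.38e-05 and 8.15e-05).

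Some complex I genes differed between the EpiSC cultures. Ndufc2, of the membrane arm, had values of 11.58, 11.71 and 11.65 on the 2i ESC arrays, 11.26, 11.26 and 11.18 on the CHIR/XAV EpiSC arrays and 11.80, 11.79 and 11.63 on the FGF2/activin EpiSC arrays. The CHIR/XAV arrays were lowest and overlapped with neither other group, with changes of -0.41 ± 0.07 (SE; limma adjusted p = 0.000204) against ESCs and -0.51 ± 0.07 (SE; limma adjusted p = 4.91e-05) against FGF2/activin EpiSCs. In FGF2/activin EpiSCs the change against ESCs was 0.09 (adjusted p = 0.269).

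The electron-path subunit Ndufs1 did not pass the test in any comparison (0.15, -0.01 and 0.16; limma adjusted p = 0.0548, 0.941 and 0.0522). It was called between the EpiSC cultures under 4 of the alternative settings, among them the trend and robust variance. Ndufa9, an accessory subunit beside the ubiquinone site, was called lower in CHIR/XAV EpiSCs (-0.26 ± 0.10 (SE; limma adjusted p = 0.0402)). That call was lost when either of ESC replicates 1 and 3 (-0.20 and -0.22), either of CHIR/XAV replicates 1 and 3 (-0.17 and -0.26) or FGF2/activin replicate 1 (-0.26) was left out, and its groups overlapped.

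Complex II is succinate dehydrogenase, which also serves the citric acid cycle. Sdhd, a membrane anchor of the complex, had the largest rise of all 89 genes in CHIR/XAV EpiSCs, 1.91-fold. Its values were 8.11, 8.33 and 8.15 on the 2i ESC arrays, 9.12, 9.11 and 9.15 on the CHIR/XAV EpiSC arrays and 8.59, 8.56 and 8.58 on the FGF2/activin EpiSC arrays. The 3 groups did not overlap, with the CHIR/XAV arrays close to each other and highest. Changes were 0.93 ± 0.07 (SE; limma adjusted p = 5.11e-08) and 0.38 ± 0.07 (SE; limma adjusted p = 0.00036) against ESCs, and 0.55 ± 0.07 (SE; limma adjusted p = 1.9e-05) between the EpiSC cultures.

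The other anchor, Sdhc, measured 9.56, 9.58 and 9.54 on the 2i ESC arrays, 9.50, 9.52 and 9.62 on the CHIR/XAV EpiSC arrays and 9.28, 9.36 and 9.36 on the FGF2/activin EpiSC arrays. Against ESCs it fell by 0.23 in FGF2/activin EpiSCs (SE 0.06; limma adjusted p = 0.00774), and its change in CHIR/XAV was -0.02 (adjusted p = 0.838). Its difference between the EpiSC cultures, 0.21 ± 0.06 (SE; limma adjusted p = 0.0183), was lost without CHIR/XAV replicate 3 (0.17) or FGF2/activin replicate 1 (0.18). The flavoprotein gene Sdha changed by -0.04 and 0.03 against ESCs and passed in no comparison (limma adjusted p = 0.622, 0.711 and 0.4). Sdhb, the iron-sulfur subunit, was called lower in CHIR/XAV EpiSCs (-0.24 ± 0.08 (SE; limma adjusted p = 0.0275)), although its groups overlapped. The call was lost without ESC replicate 2 (-0.21), ESC replicate 3 (-0.24), CHIR/XAV replicate 1 (-0.18) or CHIR/XAV replicate 2 (-0.20).

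The promoter of Sdhd is shown as the gene with the largest rise in CHIR/XAV EpiSCs against ESCs. It runs 250 bases before to 50 after the annotated start, from RefSeq on GRCm38.p6. Capitals mark TGACCTTGA, the reverse complement of TCAAGGTCA, the half-site of the estrogen-related receptor family, which begins 37 bases past the start.
Sdhd, chr9:50603800-50604099, minus strand: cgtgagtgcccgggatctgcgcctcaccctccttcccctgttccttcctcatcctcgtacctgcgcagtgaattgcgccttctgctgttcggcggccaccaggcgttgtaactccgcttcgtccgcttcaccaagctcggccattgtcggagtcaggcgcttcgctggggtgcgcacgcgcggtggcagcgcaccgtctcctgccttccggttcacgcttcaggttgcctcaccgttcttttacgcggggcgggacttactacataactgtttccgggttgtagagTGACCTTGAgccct

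Complex III, the cytochrome bc1 complex, had 1 rise (12.5%) and 2 falls (25.0%) among 8 genes in CHIR/XAV EpiSCs, beside 24.7% and 22.1% of all genes. In FGF2/activin EpiSCs it had 1 rise (12.5%) and 3 falls (37.5%), beside 27.8% and 33.5%. Medians were 0.01 and -0.09. Uqcr10, a small subunit beside cytochrome c1, measured 8.47, 8.60 and 8.83 on the 2i ESC arrays, 7.70, 7.76 and 7.85 on the CHIR/XAV EpiSC arrays and 8.34, 8.46 and 8.21 on the FGF2/activin EpiSC arrays. The CHIR/XAV arrays lay below all others, and the FGF2/activin arrays lay below the ESC arrays with a narrow gap. It fell by 0.87 (SE 0.09; limma adjusted p = 2.69e-06) in CHIR/XAV EpiSCs. The change in FGF2/activin EpiSCs was -0.30 ± 0.09 (SE; limma adjusted p = 0.0137), and this call was lost without ESC replicate 3 (-0.20) or FGF2/activin replicate 3 (-0.24). Between the EpiSC cultures the difference was -0.57 ± 0.09 (SE; limma adjusted p = 0.000234), with CHIR/XAV lower.

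Uqcrc1, a core protein on the matrix side, measured 11.13, 11.26 and 11.26 on the 2i ESC arrays, 10.81, 10.91 and 10.82 on the CHIR/XAV EpiSC arrays and 10.89, 10.94 and 10.90 on the FGF2/activin EpiSC arrays. All 6 EpiSC arrays lay below all 3 ESC arrays, with changes of -0.37 ± 0.07 (SE; limma adjusted p = 0.000282) and -0.31 ± 0.07 (SE; limma adjusted p = 0.00107). The other core protein gene, Uqcrc2, changed by -0.07 and -0.12 and did not pass (limma adjusted p = 0.456 and 0.154). Uqcrfs1, the Rieske iron-sulfur protein, rose against ESCs by 0.31 ± 0.09 (SE; limma adjusted p = 0.0139) in CHIR/XAV and 0.35 ± 0.09 (SE; limma adjusted p = 0.00486) in FGF2/activin EpiSCs. Its call in CHIR/XAV was lost after median centring and without ESC replicate 3 (0.25) or CHIR/XAV replicate 1 (0.27), and its call in FGF2/activin after quantile normalization.

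The Uqcrc1 promoter holds GCGCATGCG, the core of the NRF1 recognition sequence, on both strands, as the capitals mark. The run begins 31 bases past the start.
Uqcrc1, chr9:108936398-108936697, plus strand: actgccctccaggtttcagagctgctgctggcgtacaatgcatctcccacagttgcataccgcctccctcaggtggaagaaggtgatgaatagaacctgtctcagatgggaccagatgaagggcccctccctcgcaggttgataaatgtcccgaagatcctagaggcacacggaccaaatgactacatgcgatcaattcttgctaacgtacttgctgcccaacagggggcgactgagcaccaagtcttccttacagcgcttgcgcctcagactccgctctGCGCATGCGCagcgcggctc

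Complex IV, cytochrome c oxidase, had more falls than rises against ESCs. In FGF2/activin EpiSCs 8 of its 18 genes fell (44.4%) and 1 rose (5.56%), with a median of -0.21, beside 33.5% and 27.8% of all genes. In CHIR/XAV EpiSCs 6 fell (33.3%) and 4 rose (22.2%), with a median of -0.08, beside 22.1% and 24.7%. Between the EpiSC cultures 6 were higher (33.3%) and 2 lower (11.1%) in CHIR/XAV, beside 20.5% and 21.1%. After median centring 11 fell and 1 rose in FGF2/activin EpiSCs, beside 45.0% and 24.2% of all genes under the same scaling. In CHIR/XAV EpiSCs 9 fell and 2 rose, beside 37.2% and 20%. After quantile normalization 7 fell and 1 rose in FGF2/activin EpiSCs, beside 28.6% and 24.4% of all genes. Under that scaling 6 fell and 4 rose in CHIR/XAV EpiSCs, beside 24.8% and 23.2%. Of the 18 genes, 4 are among the dimmest 40% of all genes (Cox6a2, Cox8b, Cox8c and Ndufa4l2), where a value cannot be told from background. Among the other 14, 5 fell and 1 rose in FGF2/activin EpiSCs, with a median of -0.09. A share of 5 in 14 stands beside 28.6% of all genes above the same limit that fell in that comparison. In CHIR/XAV EpiSCs the dim Cox8b is among the 6 falls and the dim Ndufa4l2 among the 4 rises. There 26.9% of the brighter genes fell and 36.2% rose. Cox6a2 and Ndufa4l2, both dim, are among the 6 genes higher in CHIR/XAV than in FGF2/activin EpiSCs.

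The largest falls in FGF2/activin EpiSCs were those of Cox5a and Cox7a1. Cox5a, a subunit on the matrix side of the enzyme, measured 9.07, 9.07 and 9.22 on the 2i ESC arrays, 8.05, 8.34 and 8.46 on the CHIR/XAV EpiSC arrays and 8.34, 8.40 and 8.49 on the FGF2/activin EpiSC arrays. Every EpiSC array was below the lowest ESC array, and the changes were -0.84 ± 0.10 (SE; limma adjusted p = 4.59e-06) and -0.71 ± 0.10 (SE; limma adjusted p = 2.03e-05). The EpiSC cultures overlapped with each other (-0.13; adjusted p = 0.311).

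Cox7a1 is the heart and skeletal muscle form of subunit VIIa. Its values were 7.95, 8.01 and 7.99 on the 2i ESC arrays, 7.30, 6.91 and 7.11 on the CHIR/XAV EpiSC arrays and 7.37, 7.38 and 7.29 on the FGF2/activin EpiSC arrays. The ESC arrays lay close together above all EpiSC arrays, and the changes were -0.88 ± 0.09 (SE; limma adjusted p = 1.03e-06) and -0.64 ± 0.09 (SE; limma adjusted p = 2.17e-05). The EpiSC cultures differed by -0.24 ± 0.09 (SE; limma adjusted p = 0.0408) with overlapping arrays, and that call was lost without ESC replicate 2 (-0.24), CHIR/XAV replicate 2 (-0.14) or 3 (-0.24), or FGF2/activin replicate 1 (-0.23) or 2 (-0.22).

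Cox6b2, the testis form of subunit VIb, changed in CHIR/XAV EpiSCs. It measured 7.66, 7.67 and 7.57 on the 2i ESC arrays, 6.82, 6.69 and 6.64 on the CHIR/XAV EpiSC arrays and 7.60, 7.54 and 7.54 on the FGF2/activin EpiSC arrays. The ESC and FGF2/activin arrays overlapped, and the CHIR/XAV arrays were all lower than both. The change was -0.92 ± 0.07 (SE; limma adjusted p = 4.87e-08) in CHIR/XAV against ESCs and -0.07 (adjusted p = 0.393) in FGF2/activin EpiSCs. The difference between the EpiSC cultures was -0.85 ± 0.07 (SE; limma adjusted p = 2.2e-07). After quantile normalization Cox6b2 was also called lower in FGF2/activin EpiSCs, at -0.27.

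**Figure D2:**
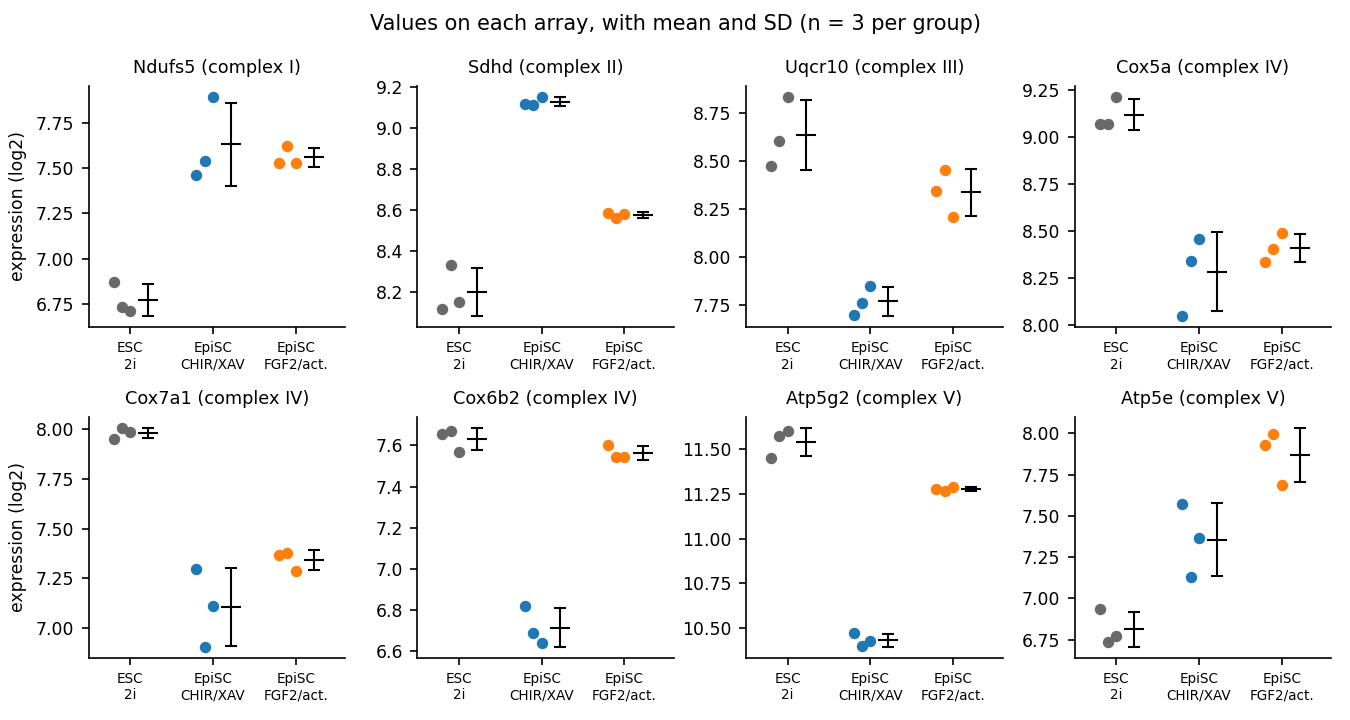
Values of 8 genes on each array in log2 expression (y axis, a separate scale for each gene), with the 3 cultures on the x axis; each point is 1 array, and the bar beside it is the mean with its SD (n = 3). Ndufs5, Sdhd and Atp5e lie higher in both EpiSC cultures than in ESCs, Uqcr10, Cox5a, Cox7a1 and Atp5g2 lie lower, and Cox6b2 lies lower in CHIR/XAV EpiSCs than in either other culture.

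Several subunits of complex IV exist in more than 1 version, each from its own gene, with a common form and a form typical of muscle, lung or testis. For subunit IV, the common form Cox4i1 measured 10.06, 10.01 and 10.08 on the 2i ESC arrays, 9.61, 9.74 and 9.89 on the CHIR/XAV EpiSC arrays and 9.67, 9.58 and 9.51 on the FGF2/activin EpiSC arrays. It was highest in ESCs without overlap, with changes of -0.31 ± 0.08 (SE; limma adjusted p = 0.00516) and -0.47 ± 0.08 (SE; limma adjusted p = 0.000164). The lung form Cox4i2, known to respond to low oxygen, measured 5.91, 5.77 and 5.68 on the 2i ESC arrays, 6.22, 6.08 and 6.04 on the CHIR/XAV EpiSC arrays and 5.54, 5.49 and 5.50 on the FGF2/activin EpiSC arrays. It was highest in CHIR/XAV and lowest in FGF2/activin EpiSCs, and was called in opposite directions against ESCs, 0.32 ± 0.08 (SE; limma adjusted p = 0.00245) and -0.28 ± 0.08 (SE; limma adjusted p = 0.00595). The difference between the EpiSC cultures was 0.60 ± 0.08 (SE; limma adjusted p = 1.76e-05). Cox4i2 lies near the array medians of 5.57 to 5.65, and without detection calls it may be close to background.

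For subunit VIIa, the common form Cox7a2 did not pass against ESCs (0.17 and -0.03; limma adjusted p = 0.074 and 0.703), whereas the muscle form Cox7a1 fell in both. The direct difference between the changes of these 2 genes was not tested. The related Cox7a2l measured 8.07, 7.95 and 8.13 on the 2i ESC arrays, 8.43, 8.39 and 8.55 on the CHIR/XAV EpiSC arrays and 7.89, 7.96 and 7.91 on the FGF2/activin EpiSC arrays. It was higher in CHIR/XAV EpiSCs than in either other culture, by 0.41 ± 0.07 (SE; limma adjusted p = 0.000273) and 0.54 ± 0.07 (SE; limma adjusted p = 3.18e-05). A second probe set of this gene gave -0.08 between the EpiSC cultures and 0.36 in FGF2/activin EpiSCs against ESCs, where the brighter one gave -0.13, so its probe sets disagree on the culture in which it is higher.

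Subunit VIII showed falls in its common form Cox8a, -0.34 ± 0.06 (SE; limma adjusted p = 0.000346) and -0.24 ± 0.06 (SE; limma adjusted p = 0.00379). The muscle form Cox8b and the testis form Cox8c were dim on all arrays, and their changes of -0.32 and -0.27 in FGF2/activin EpiSCs were lost after quantile normalization. Cox8b in CHIR/XAV EpiSCs (-0.27) lost its call without CHIR/XAV replicate 2 (-0.24) or 3 (-0.21). Cox6a2, the muscle form of subunit VIa, changed by -0.39 ± 0.08 (SE; limma adjusted p = 0.000712) in FGF2/activin EpiSCs, and its common form Cox6a1 was at -0.04 and 0.18 against ESCs, without a call. The common form Cox6b1 (0.09 and 0.04) did not pass, nor did Cox7b (-0.13 and -0.08) or its testis form Cox7b2 (0.22 and -0.30; limma adjusted p = 0.23 and 0.0821). Cox7b2 was 0.52 higher in CHIR/XAV than in FGF2/activin EpiSCs (SE 0.14; limma adjusted p = 0.00928). It too lies near the array medians, with means of 5.63 in ESCs, 5.85 in CHIR/XAV and 5.33 in FGF2/activin EpiSCs.

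Markers of muscle and germ cells, where such forms are known, were read on the same arrays. The summed level of 7 muscle markers ran from 8.45 to 8.60 in ESCs, 8.53 to 8.74 in CHIR/XAV EpiSCs and 10.99 to 11.06 in FGF2/activin EpiSCs, on the log2 scale. In the last, Actc1 had a mean of 10.40 and Acta1 of 9.15, while Myl2 and Myh6 were at 4.93 and 4.65. Of these 7 markers 2 were higher and 2 lower in FGF2/activin EpiSCs than in ESCs. The summed level of 4 germ cell markers ran from 10.08 to 10.16 in ESCs, 9.33 to 9.46 in CHIR/XAV and 6.63 to 6.87 in FGF2/activin EpiSCs, and 4 of 4 fell in each. These are RNA levels of markers in bulk cultures. Whether such cells were present, and any part they had in the results, was not tested.

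Ndufa4, a small subunit of complex IV, rose against ESCs, by 0.29 ± 0.08 (SE; limma adjusted p = 0.0115) and 0.40 ± 0.08 (SE; limma adjusted p = 0.00106). The first call was lost without ESC replicate 3 (0.22) or CHIR/XAV replicate 1 (0.24), and after median centring. Cox5b, a zinc-binding subunit, measured 10.80, 10.94 and 10.87 on the 2i ESC arrays, 11.16, 11.07 and 11.15 on the CHIR/XAV EpiSC arrays and 10.84, 10.76 and 10.81 on the FGF2/activin EpiSC arrays. The CHIR/XAV arrays were the highest, with changes of 0.26 ± 0.07 (SE; limma adjusted p = 0.0044) against ESCs, lost after median centring, and 0.33 ± 0.07 (SE; limma adjusted p = 0.00101) against FGF2/activin EpiSCs. A second probe set gave 0.66 in the former comparison, in the same direction. Cox6c was at -0.11 and -0.09 against ESCs and did not pass.

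**Figure D3:**
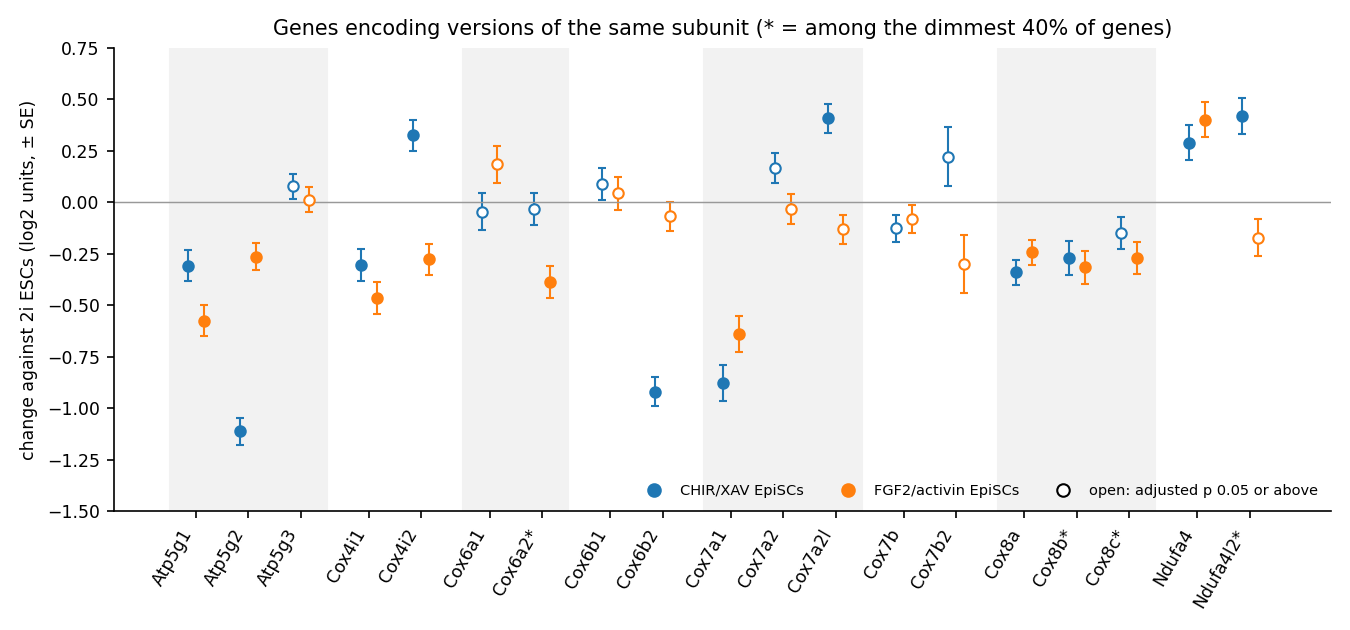
Change against 2i ESCs in log2 units (y axis, with SE bars) for genes that encode versions or relatives of the same subunit, grouped by shading along the x axis, in CHIR/XAV EpiSCs (blue) and FGF2/activin EpiSCs (orange). Filled points passed a limma adjusted p under 0.05 and open ones did not; within the c subunit set Atp5g2 is lowest in CHIR/XAV at -1.11, while Atp5g3 is at 0.08 and 0.01.

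Complex V makes ATP in a head, F1, that is driven by a ring of c subunits in the membrane. Of its 17 genes, 3 rose (17.6%) and 4 fell (23.5%) in CHIR/XAV EpiSCs, and 4 rose (23.5%) and 6 fell (35.3%) in FGF2/activin EpiSCs. Beside these stand 24.7% rises and 22.1% falls of all genes, and 27.8% and 33.5%. The medians of complex V were 0.07 and 0.01. The c subunit is made from 3 genes, Atp5g1, Atp5g2 and Atp5g3, whose proteins differ in their import sequence and give the same mature subunit. In each EpiSC culture 2 of the 3 genes fell, and the third did not pass.

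Atp5g2 had the largest fall of all 89 genes. Its values were 11.45, 11.57 and 11.60 on the 2i ESC arrays, 10.47, 10.40 and 10.42 on the CHIR/XAV EpiSC arrays and 11.28, 11.27 and 11.29 on the FGF2/activin EpiSC arrays. The CHIR/XAV arrays lay far below every ESC array, and the FGF2/activin arrays lay between them, without overlap. The fall was 2.16-fold in CHIR/XAV EpiSCs, -1.11 ± 0.06 (SE; limma adjusted p = 3.36e-09). It was smaller in FGF2/activin EpiSCs, -0.26 ± 0.06 (SE; limma adjusted p = 0.00308), and the difference between the EpiSC cultures was -0.85 ± 0.06 (SE; limma adjusted p = 1.29e-07). The other probe sets of the gene gave -0.95 and -1.05 in CHIR/XAV EpiSCs against ESCs.

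Atp5g1 measured 11.63, 11.66 and 11.81 on the 2i ESC arrays, 11.27, 11.41 and 11.50 on the CHIR/XAV EpiSC arrays and 11.14, 11.15 and 11.10 on the FGF2/activin EpiSC arrays. It was highest in ESCs and lowest in FGF2/activin EpiSCs, the opposite order of the EpiSC cultures to Atp5g2, with changes of -0.31 ± 0.08 (SE; limma adjusted p = 0.00366) and -0.57 ± 0.08 (SE; limma adjusted p = 1.52e-05). Between the EpiSC cultures it was higher in CHIR/XAV by 0.27 ± 0.08 (SE; limma adjusted p = 0.0109). Atp5g3 measured 11.52, 11.54 and 11.50 on the 2i ESC arrays, 11.64, 11.57 and 11.58 on the CHIR/XAV EpiSC arrays and 11.55, 11.53 and 11.51 on the FGF2/activin EpiSC arrays. Its CHIR/XAV arrays lay narrowly above its ESC arrays, and its changes of 0.08 and 0.01 did not pass (limma adjusted p = 0.325 and 0.853).

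The promoters of the 3 c subunit genes are shown because the genes give 1 mature protein and changed by different amounts. They span the same window as above, on GRCm38.p6. Capitals mark the NRF1 core GCGCATGCG on both strands in Atp5g2, which begins 42 bases before the start, and the reverse complement of TCAAGGTCA in Atp5g3, which begins 52 bases before it. Atp5g1 holds none of the 4 sequences searched.
Atp5g1, chr11:96075582-96075881, minus strand: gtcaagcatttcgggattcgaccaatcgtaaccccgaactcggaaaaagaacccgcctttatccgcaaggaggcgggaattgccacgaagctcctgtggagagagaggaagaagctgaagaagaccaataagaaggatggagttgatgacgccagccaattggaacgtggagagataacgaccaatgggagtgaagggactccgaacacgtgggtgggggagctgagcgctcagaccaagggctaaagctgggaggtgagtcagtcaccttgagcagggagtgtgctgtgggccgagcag
Atp5g2, chr15:102670998-102671297, minus strand: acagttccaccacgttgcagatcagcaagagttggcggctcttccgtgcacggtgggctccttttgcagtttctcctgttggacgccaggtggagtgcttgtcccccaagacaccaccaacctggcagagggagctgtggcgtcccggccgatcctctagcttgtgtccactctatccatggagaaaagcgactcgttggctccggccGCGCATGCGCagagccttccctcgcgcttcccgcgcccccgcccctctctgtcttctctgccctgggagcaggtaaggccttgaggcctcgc
Atp5g3, chr2:73911277-73911576, minus strand: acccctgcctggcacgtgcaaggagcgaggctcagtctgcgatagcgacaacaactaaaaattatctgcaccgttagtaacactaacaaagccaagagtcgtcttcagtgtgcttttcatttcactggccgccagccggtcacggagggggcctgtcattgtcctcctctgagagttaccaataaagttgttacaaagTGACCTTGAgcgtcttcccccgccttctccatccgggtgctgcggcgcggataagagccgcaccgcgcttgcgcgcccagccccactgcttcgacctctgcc

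In the F1 head, Atp5e, the epsilon subunit, had the largest rise in FGF2/activin EpiSCs. It measured 6.93, 6.73 and 6.77 on the 2i ESC arrays, 7.57, 7.13 and 7.36 on the CHIR/XAV EpiSC arrays and 7.93, 8.00 and 7.69 on the FGF2/activin EpiSC arrays. The 3 groups did not overlap, with ESCs lowest and FGF2/activin highest. The rise was 2.08-fold in FGF2/activin EpiSCs, 1.06 ± 0.11 (SE; limma adjusted p = 1.4e-06), and 0.54 ± 0.11 (SE; limma adjusted p = 0.000887) in CHIR/XAV EpiSCs. The EpiSC cultures differed by -0.52 ± 0.11 (SE; limma adjusted p = 0.00172).

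The large subunits of the head had small changes. Atp5b, the catalytic beta subunit, did not pass in any comparison (-0.10, -0.06 and -0.04; limma adjusted p = 0.314, 0.491 and 0.723), though it was called lower in CHIR/XAV EpiSCs after median centring. Atp5a1, the alpha subunit, was lower in FGF2/activin EpiSCs than in ESCs (-0.16 ± 0.06 (SE; limma adjusted p = 0.0361)) and than in CHIR/XAV EpiSCs (0.17 ± 0.06 (SE; limma adjusted p = 0.0375)). The former call was lost without ESC replicate 1 (-0.16) or 2 (-0.15), or FGF2/activin replicate 1 (-0.14) or 3 (-0.15). The latter was lost without any 1 of the 6 EpiSC arrays, at 0.16 to 0.19. Atp5c1, the gamma subunit of the rotor, fell in FGF2/activin EpiSCs by 0.21 (SE 0.06; limma adjusted p = 0.00926). Its fall in CHIR/XAV EpiSCs, -0.18 ± 0.06 (SE; limma adjusted p = 0.0274), was lost without ESC replicate 1 (-0.17) or 2 (-0.18), or CHIR/XAV replicate 2 (-0.16) or 3 (-0.18).

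Of 9 genes for the stalk and the rest of the membrane part, 2 rose and 1 fell in CHIR/XAV EpiSCs, and 2 rose and 2 fell in FGF2/activin EpiSCs. Of all genes 24.7% rose and 22.1% fell in the former, and 27.8% and 33.5% in the latter. Atp5md, which supports dimers of the enzyme, measured 11.15, 10.96 and 10.93 on the 2i ESC arrays, 11.53, 11.44 and 11.25 on the CHIR/XAV EpiSC arrays and 11.43, 11.57 and 11.35 on the FGF2/activin EpiSC arrays. It lay higher on all 6 EpiSC arrays, with rises of 0.39 ± 0.09 (SE; limma adjusted p = 0.00228) and 0.44 ± 0.09 (SE; limma adjusted p = 0.000873). Atp5mpl, a small proteolipid, was higher in CHIR/XAV than in FGF2/activin EpiSCs by 0.25 ± 0.07 (SE; limma adjusted p = 0.0101). Against ESCs it was at -0.18 in FGF2/activin EpiSCs, a call that ended when any of 5 single arrays was left out (ESC replicates 1, 2 and 3 at -0.19, -0.19 and -0.17, FGF2/activin replicates 1 and 2 at -0.17 and -0.18).

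The assembly factors of complex I and Cox7a2l, 8 genes in all, had 4 rises and 0 falls in CHIR/XAV EpiSCs and 3 rises and 0 falls in FGF2/activin EpiSCs. Of all genes 24.7% rose and 22.1% fell in the first comparison, and 27.8% and 33.5% in the second. After quantile normalization the 3 rises and 0 falls of the 8 genes in FGF2/activin EpiSCs became 1 and 2. Under that scaling 24.4% of all genes rose and 28.6% fell. In CHIR/XAV EpiSCs the rises included Ndufaf2, a chaperone of late assembly (0.58 ± 0.09 (SE; limma adjusted p = 0.000125)), and Ndufaf7, a methyltransferase (0.50 ± 0.08 (SE; limma adjusted p = 9.5e-05)). In FGF2/activin EpiSCs they included Ndufaf6 (0.44 ± 0.09 (SE; limma adjusted p = 0.00111), lost after quantile normalization) and Ndufaf1, which acts on the membrane arm. Ndufaf1 measured 7.96, 8.00 and 7.78 on the 2i ESC arrays, 7.92, 8.01 and 7.99 on the CHIR/XAV EpiSC arrays and 8.37, 8.42 and 8.28 on the FGF2/activin EpiSC arrays. Its ESC and CHIR/XAV arrays overlapped and the FGF2/activin arrays were higher, by 0.44 ± 0.07 (SE; limma adjusted p = 0.000147) against ESCs.

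Genes on chromosomes 15 and X were examined apart, since those chromosomes differed between the cultures. On chromosome 15 lie Cox6c, Ndufb9, Ndufa6 and Atp5g2, in this order. Ndufb9, an accessory subunit of the membrane arm of complex I, measured 10.23, 10.24 and 10.25 on the 2i ESC arrays, 10.82, 10.82 and 10.66 on the CHIR/XAV EpiSC arrays and 10.23, 10.26 and 10.09 on the FGF2/activin EpiSC arrays. The CHIR/XAV arrays were higher than all others, by 0.53 ± 0.07 (SE; limma adjusted p = 2.32e-05) and 0.57 ± 0.07 (SE; limma adjusted p = 1.69e-05). Among its 40 nearest genes above the dimmest 40%, 29 rose and 3 fell in CHIR/XAV EpiSCs against ESCs, with a median of 0.53. Of these neighbours 25 rose and 7 fell in FGF2/activin EpiSCs, where Ndufb9 was at -0.04, with a median of 0.30. Between the EpiSC cultures 17 were higher and 7 lower in CHIR/XAV, with a median of 0.13. Of all genes above the dimmest 40%, 36.2% rose and 26.9% fell in CHIR/XAV EpiSCs against ESCs. In FGF2/activin EpiSCs 42.4% of these rose and 28.6% fell, and between the EpiSC cultures 22.3% were higher and 32.8% lower.

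Atp5g2 lies near the end of the chromosome. Among its 29 nearest such genes, of which 9 lie between it and the last, 22 fell and 5 rose in CHIR/XAV EpiSCs against ESCs, with a median of -0.61. In FGF2/activin EpiSCs the same neighbours had a median of 0.08. Between the EpiSC cultures 24 of the 29 were lower in CHIR/XAV and 0 higher, with a median of -0.76. Beside these stand 26.9% falls and 36.2% rises in CHIR/XAV EpiSCs against ESCs among all genes above the dimmest 40%. Between the EpiSC cultures 32.8% of those genes were lower and 22.3% higher. The neighbours of Cox6c and Ndufa6 had medians of 0.27 and 0.27 in CHIR/XAV EpiSCs against ESCs, where these genes themselves were at -0.11 and -0.04 and did not pass. Ndufa6, an accessory subunit of complex I, was lower in FGF2/activin EpiSCs than in ESCs, -0.37 ± 0.09 (SE; limma adjusted p = 0.00246). Its 40 neighbours had a median of -0.05 there. Between the EpiSC cultures Ndufa6 was called higher in CHIR/XAV, by 0.33. Of its neighbours 23 were higher and 2 lower in that comparison, with a median of 0.25. Sdhd, on chromosome 9, had neighbours with a median of 0.10, and Uqcr10, on chromosome 11, of -0.02. These neighbours were examined after the values were seen, and their part in the results was not tested.

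**Figure D4:**
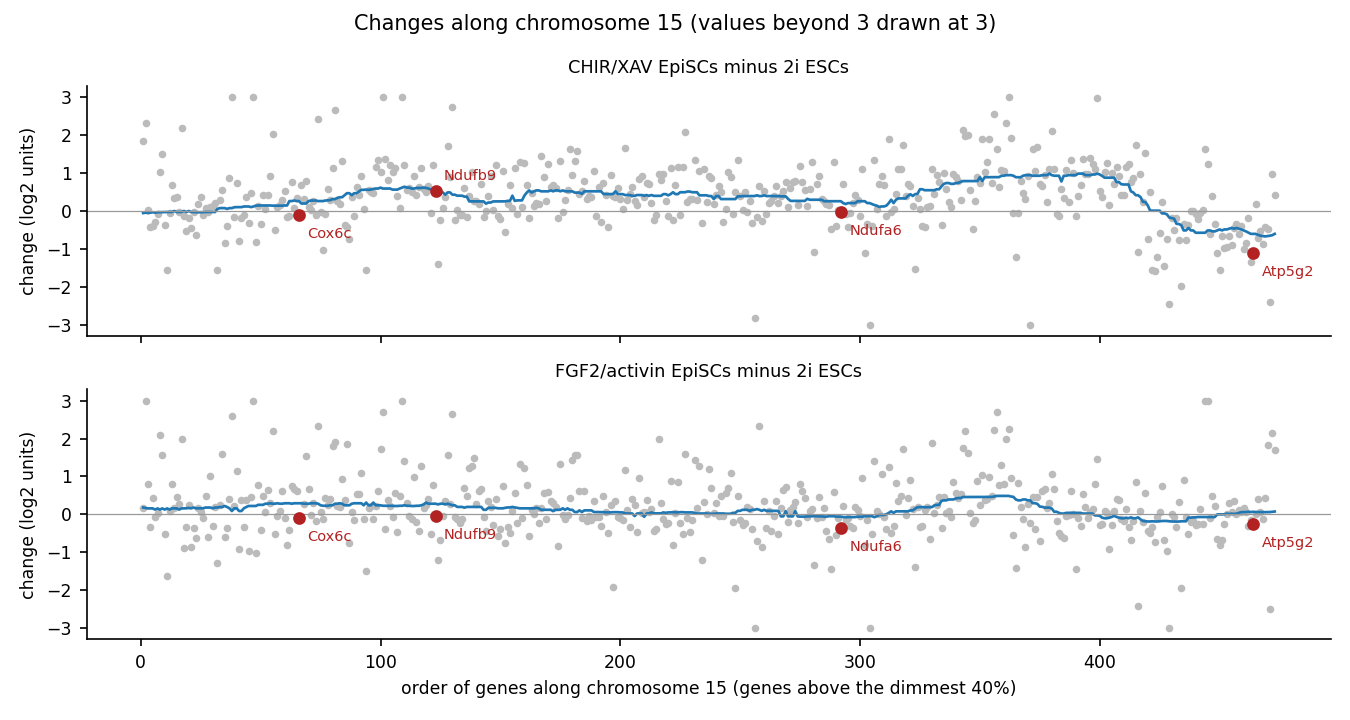
Changes of 473 genes above the dimmest 40% (grey points, y axis in log2 units) in their order along chromosome 15 (x axis) in each EpiSC culture against 2i ESCs, with the running median over 41 genes as a blue line and the 4 genes of the complexes in red; values beyond 3 are drawn at 3. In CHIR/XAV EpiSCs Ndufb9 at 0.53 and Atp5g2 at -1.11 lie on the same side of 0 as the genes around them.

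On the X chromosome lie Ndufa1, Ndufb11 and Cox7b. Ndufa1, a small subunit of the membrane arm, measured 7.12, 7.02 and 7.04 on the 2i ESC arrays, 6.93, 7.02 and 7.13 on the CHIR/XAV EpiSC arrays and 7.37, 7.50 and 7.43 on the FGF2/activin EpiSC arrays. The FGF2/activin arrays were higher than all others, by 0.37 ± 0.07 (SE; limma adjusted p = 0.000541) against ESCs, a call lost after quantile normalization. Ndufb11, also of the membrane arm, was lower in CHIR/XAV EpiSCs than in ESCs (-0.21 ± 0.07 (SE; limma adjusted p = 0.017)) and than in FGF2/activin EpiSCs (-0.22 ± 0.07 (SE; limma adjusted p = 0.0168)). The former call was lost without ESC replicate 3 (-0.19) or CHIR/XAV replicate 2 (-0.18), and the latter without CHIR/XAV replicate 2 (-0.19), or FGF2/activin replicate 1 (-0.19) or 2 (-0.20). A second probe set of Ndufb11, not tested by itself, gave -0.24 and -0.41 in these comparisons. In FGF2/activin EpiSCs against ESCs it gave 0.17, where the brighter one gave 0.01. Genes of the X above the dimmest 40% had median changes of 0.19 and 0.24 in CHIR/XAV and FGF2/activin EpiSCs against ESCs.

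Of the 89 genes 73 had a promoter in the RefSeq table, and 20 of these held at least 1 of 4 motifs on either strand. The NRF1 core GCGCATGCG, whose letters overlap with their own reverse complement, was in 10 (13.7%), compared with 1.81% of 27025 promoters of the same length and 2.63% of the 15563 that belong to genes tested here. AAGATGGCG, bound by YY1, was in 6 (8.22%), compared with 1.49% and 2.11%. CCGGAAGTG, of ETS factors such as GABPA, was in 2 (2.74%), above the 2.06% of all promoters and below the 3.00% of those of tested genes. TCAAGGTCA was in 2 (2.74%), compared with 0.407% and 0.302%. These matches describe letters only. Of the 10 genes with the NRF1 core, 0 rose and 2 fell in CHIR/XAV EpiSCs (Atp5g2 and Uqcrc1), and 2 rose and 2 fell in FGF2/activin EpiSCs. Of the 6 with the YY1 sequence, 0 rose and 3 fell, and 0 rose and 2 fell. Of the 2 with the ETS sequence 1 rose and 0 fell in each EpiSC culture, and so it was for the 2 with TCAAGGTCA. Of all genes 24.7% rose and 22.1% fell in CHIR/XAV EpiSCs, and 27.8% and 33.5% in FGF2/activin EpiSCs. A link between these sequences and the changes was not tested.

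The remaining genes of the pathway were read from lists, whose counts stand beside 24.7% rises and 22.1% falls over all genes in CHIR/XAV and 27.8% and 33.5% in FGF2/activin EpiSCs. Among genes above the dimmest 40% these shares were 36.2% and 26.9%, and 42.4% and 28.6%. Of 13 genes of mitochondrial DNA, 2 were measured, the oxidase subunit COX2 and the complex I subunit ND3, and neither passed (COX2 -0.10 and -0.04 against ESCs, ND3 -0.06 and -0.21). Of 6 carriers and further subunits 3 rose and 3 fell in CHIR/XAV, and 2 rose and 3 fell in FGF2/activin EpiSCs. Cycs, the somatic cytochrome c, rose by 0.30 and 0.34 (limma adjusted p = 0.0148 and 0.00577), and Cyct, its testis form, fell by 0.69 and 0.55 (limma adjusted p = 0.000241 and 0.00132). Cyct had means of 5.41 in ESCs, 4.72 in CHIR/XAV and 4.86 in FGF2/activin EpiSCs. These lie below the array medians of 5.57 to 5.65, and without detection calls it may be at background. Cyc1, the cytochrome c1 of complex III, was 0.51 higher in CHIR/XAV than in FGF2/activin EpiSCs (SE 0.07; limma adjusted p = 3.43e-05).

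Of 37 further assembly factors 16 rose (43.2%) and 7 fell (18.9%) in CHIR/XAV EpiSCs, and 18 rose (48.6%) and 7 fell (18.9%) in FGF2/activin EpiSCs. Nubpl, which delivers iron-sulfur clusters to complex I, rose by 0.81 in CHIR/XAV (SE 0.07), and Timmdc1, a membrane arm assembly factor, by 0.91 in FGF2/activin EpiSCs (SE 0.08). Cox18, which inserts the mitochondrially made COX2, fell by 0.65 and 0.48 (SE 0.06 for both). Of 12 genes of ubiquinone synthesis 2 rose (16.7%) and 6 fell (50%) in CHIR/XAV, and 2 rose and 5 fell (41.7%) in FGF2/activin EpiSCs. Of 11 genes of the citric acid cycle 4 rose and 4 fell (36.4% each), and 5 rose (45.5%) and 4 fell (36.4%). Of 77 mitochondrial ribosomal proteins 26 rose (33.8%) and 20 fell (26%), and 22 rose (28.6%) and 21 fell (27.3%).

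Of 20 regulators of mitochondrial genes 4 rose (20%) and 7 fell (35.0%) in CHIR/XAV, and 1 rose (5.0%) and 7 fell (35.0%) in FGF2/activin EpiSCs. Esrrb, the estrogen-related receptor of naive ESCs, fell from a mean of 10.08 to 4.93 and 4.72. Gabpa, an ETS factor of respiratory genes, fell by 0.38 and 0.36 (limma adjusted p = 0.000169 and 0.000236), and Nrf1 by 0.27 and 0.27 (0.0121 and 0.01). Yy1, whose sequence was counted above, went the other way. It was the regulator that rose in FGF2/activin EpiSCs, by 0.25 (SE 0.07; limma adjusted p = 0.00739). In CHIR/XAV EpiSCs Tefm had a larger fall than Gabpa and Nrf1, at -0.78 (SE 0.09; limma adjusted p = 3.83e-06). Tefm was lower still in FGF2/activin EpiSCs, with means of 8.96 in ESCs, 8.18 in CHIR/XAV and 7.99 in FGF2/activin EpiSCs. Tfb1m rose in CHIR/XAV EpiSCs by 0.38 (SE 0.07; limma adjusted p = 0.000251). Ppargc1b, a coactivator of mitochondrial genes, had the largest fall after Esrrb in FGF2/activin EpiSCs, 0.98 (SE 0.08; limma adjusted p = 9.46e-08). The fall of Tefm in that culture was close to it in size. Tfam, which packages and transcribes mitochondrial DNA, rose by 0.45 in CHIR/XAV EpiSCs (SE 0.07; limma adjusted p = 0.000158), and its change in FGF2/activin EpiSCs was 0.06 (adjusted p = 0.511).

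Genes read only through shared probe sets were not tested. The 2 probe sets shared by Ndufb4 and Ndufb4b were lower in both EpiSC cultures than in ESCs, by changes of -0.55 and -0.54 in CHIR/XAV and -0.46 and -0.46 in FGF2/activin EpiSCs. The 3 shared by Cox7c and Gm12338 changed by 0.20 to 0.37 in CHIR/XAV and 0.01 to 0.11 in FGF2/activin EpiSCs.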

How the data were processed

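Each array held total RNA of 1 culture, read on an Affymetrix Mouse Gene 1.0 ST array, as the probe annotation's header names it. Per probe set and array the deposited file holds 1 log2 value, made by the authors with RMA in Partek, per the submitters' processing notes. No detection calls entered, so dim genes may be at background level. Of 35399 probe sets, 21789 carried 1 gene symbol and were used, 1621 several and 11989 none; 19856 of the 19938 genes were matched to RefSeq by gene identifier. For a gene with several probe sets the brightest over the 9 arrays was kept. Groups came from the sample titles.

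All 9 arrays were fitted at once with limma 3.58.1 in R 4.3.3, without covariates or a filter, and p-values were adjusted by Benjamini-Hochberg over 19938 genes, with a threshold of 0.05. The fit was tested on simulated data. The genes and lists were chosen with earlier results of these data known. Named were, by rule, up to 2 largest called rises and falls per complex and comparison, 17 central subunits (1 of them not reported here), isoform sets and genes on chromosomes 15 and X. The number of arrays limits the precision. Promoters are 250 bases before to 50 after the start (GRCm38.p6).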

Additional observations from a re-analysis of the deposited data

Results flagged for a closer look

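For 6 genes the change against ESCs differed between the EpiSC cultures by at least 0.5 log2 units at a limma adjusted p under 0.05, a limit chosen after the values were seen. The change in CHIR/XAV minus that in FGF2/activin EpiSCs was 0.60 for Cox4i2, which was called in opposite directions against ESCs at values near the array medians. It was -0.85 for Cox6b2 and -0.51 for Ndufc2, which fell in CHIR/XAV EpiSCs. It was 0.57 for Ndufb9, whose 40 neighbours on chromosome 15 had a median difference of 0.13. It was 0.59 for Ndufa4l2, a relative of Ndufa4 known to respond to low oxygen, which is among the dimmest 40% of genes. For Cox7a2l it was 0.54, and -0.08 on the second probe set of that gene.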

How the results depend on the processing

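No called value of a named gene changed sign in any alternative setting. Of 2775 values of named genes over these settings, 2590 kept direction and side of the threshold, 55 gained a call, 77 lost one, and 53 without a call in either fit changed sign, among them Cox7a2l in FGF2/activin EpiSCs against ESCs (0.12 with the mean of its probe sets, in place of -0.13). Of 360 values of the medians over members and complexes 28 changed sign. After quantile normalization the rises in FGF2/activin EpiSCs against ESCs numbered 12 in place of 20, and 7 in place of 11 were lower in CHIR/XAV than in FGF2/activin EpiSCs. With 1 array left out the latter count ran from 7 to 13. The causes were not tested. 

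After median centring the median change of all members was -0.073, -0.119 and 0.003 in CHIR/XAV against ESCs, FGF2/activin against ESCs and CHIR/XAV against FGF2/activin EpiSCs. The medians of complexes I, II, IV and V in the first comparison were -0.081, -0.131, -0.179 and -0.036. Those of complexes I to IV in the second were -0.066, -0.141, -0.161 and -0.282. After quantile normalization the member medians were -0.008, -0.126 and 0.061. Complexes I, II and V were then at -0.117, -0.192 and -0.067 in the second comparison and at 0.137, 0.174 and 0.004 in the third. Without the dimmest 40% of genes complex IV was at -0.085 in the second and -0.034 in the third, and without chromosomes 15, X and Y the members were at 0.063 in the first. Leaving out 1 array moved the median of the members in the third comparison between 0.008 and 0.055, that of complex V between -0.08 and 0.021, and that of complex IV in the second between -0.217 and -0.153.

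A fit with the replicate number as a replicate block kept 41 of 43, 43 of 44 and 28 of 31 calls and added 1, 2 and 1. Deviations of same-numbered arrays correlated at -0.071 to 0.239, and those of differently numbered arrays at -0.227 to 0.178. Whether same-numbered arrays share more than a number is not in the labels, and 3 arrays per group cannot decide it. Dim genes, with no detection calls, limit what the muscle and testis forms can show.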
